A study of Mus musculus with 18 samples.

Results

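Day 3 embryoid bodies (EBs) grown with LIF were compared with the undifferentiated ES cells from which they were made. In such bodies ES cells cluster and differentiate in suspension. LIF is a cytokine under which mouse ES cells in serum go on renewing themselves. The series holds 18 two-colour cDNA arrays of mouse clones, 2 for each of 9 conditions, and every array set 1 sample against a pooled control. Of the 15360 clones on the pair of slides, 9866 carried 1 gene symbol and had a value on all 4 arrays of the comparison, and they stood for 7142 genes.

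The 2 arrays of EBs with LIF on day 3 (D3+LIF) held RNA from hanging-drop aggregates begun with 1000 cells per drop. The 2 arrays of day 0 (D0) held RNA from undifferentiated cells that grew on gelatin. All groups came from IMT11, a single line derived from 129 mice with no genetic modification, and all had LIF and bovine serum in the medium, apart from the EBs grown without LIF. Those of day 3 (D3-LIF), and the EBs of day 4 with LIF (D4+LIF), were used below to see where D3+LIF differed from its nearest neighbours. Each sample lay in Cy3 on 1 array and in Cy5 on the other, with a different RNA on each. The descriptions name 2 biological sets but not the set of each array, so a difference between the dyes and a difference between the sets cannot be told apart, and p-values measure the spread between these arrays. EBs of 1 dish are mixtures of cells. A lower ratio in bulk RNA could stand for fewer cells of a type or less RNA in each cell, and these cannot be told apart.

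The binding of LIF to its receptor and gp130 activates STAT3, which holds up factors such as Klf4 and, with Oct4 (Pou5f1), Sox2 and Nanog, keeps ES cells undifferentiated. An EB grown with LIF keeps a core of such cells, while its outer layer can turn into primitive endoderm marked by Gata4 and Gata6. ES cells divide fast, and much of their mRNA codes for ribosomal proteins, translation factors, chaperones and glycolytic enzymes. The mRNAs of ribosomal proteins and of Eef1a1, Tpt1 and Rpsa share a tract of pyrimidines at the 5′ end through which growth signals set their translation.

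The value for a clone was the log2 ratio to the pooled control, averaged over duplicate spots and centred on the median of its array within each slide. The direction of the ratios is not settled by the descriptions. It is likely sample over pool, since each array lists the sample as channel 1 and the pool as channel 2, whichever dye each had. Where the sign of the Cy3 arrays was turned, 64 of the 90 genes named by rule changed side, so every direction below rests on that reading. A ratio to a pool gives no level, so the values cannot show whether a marker was expressed.

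The D0 array in Cy3 stood apart on slide 1. The SD of its log2 ratios there was 2.23, against 0.21 to 0.63 on the EB arrays in Cy3. Its SD on slide 2 was 0.49, against 0.17 to 0.30 on those EB arrays, so it was the widest Cy3 array there too. The D3+LIF arrays had SDs of 0.35 in Cy3 and 0.65 in Cy5 on slide 1, and 0.21 and 0.86 on slide 2. The 2 D0 arrays correlated at −0.52 over clones, and the 2 D3+LIF arrays at 0.22. Over all 18 arrays, likeness followed the dye more than the condition. Pairs of Cy5 arrays averaged r = 0.67 and pairs of Cy3 arrays 0.33. Cy3 and Cy5 of the same condition averaged −0.11. D3+LIF and D0 correlated at 0.72 in Cy5 and at −0.08 in Cy3. Whether this came from the dyes or from the direction of the ratios was not tested. Duplicate spots correlated at 0.77 to 0.96 on the 4 arrays. Lists and the main genes are therefore also given on slide 2 alone. On the D3+LIF array in Cy3, moreover, 1 exact ratio recurred on 56 spots of slide 1 and on 44 of slide 2, while the next most frequent ratio occurred on 3 spots of either slide. Clones of Pkm, Gapdh, Ftl1, Actb and Rpl7 were among those that carried it. Other arrays had such a ratio too. It stood on 19 spots of slide 1 for D0 in Cy5 and on 10 of slide 2 for D0 in Cy3. On other EB arrays in Cy3 it stood on up to 51 spots of slide 1. Channel intensities were not used here, and whether these spots lay at the limit of the scanner was not tested.

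In D3+LIF EBs 2 genes were lower than in D0 ES cells by the test. Rpl37, which codes for a protein of the large ribosomal subunit, and A730082K24Rik, an uncharacterised cDNA, fell in D3+LIF. The study had picked Rpl37 from its arrays too, but reported no consistent change of it by RT-PCR. No gene rose. The 72 measured cytosolic ribosomal proteins had a median difference of −1.74 on the log2 scale, against −0.06 over all 7142 genes. Genes of pluripotency, glycolysis and the chaperones also had medians below that of all genes, with a far larger difference in Cy3 than in Cy5.

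With limma and Benjamini-Hochberg adjustment over all 7142 genes, 2 genes were lower in D3+LIF (0.028% of those tested) and 0 were higher (0%). At an unadjusted p under 0.05 there were 1040 lower genes (14.6%) and 610 higher (8.54%). Clone by clone, 0 of 15359 passed after adjustment, while 1881 lower (12.2%) and 1711 higher (11.1%) had an unadjusted p under 0.05. The count rested on the arrays used. Without the D0 array in Cy5 it became 1759 genes lower and 1060 higher, and without any of the other 3 arrays it became 0.

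**Figure D1:**
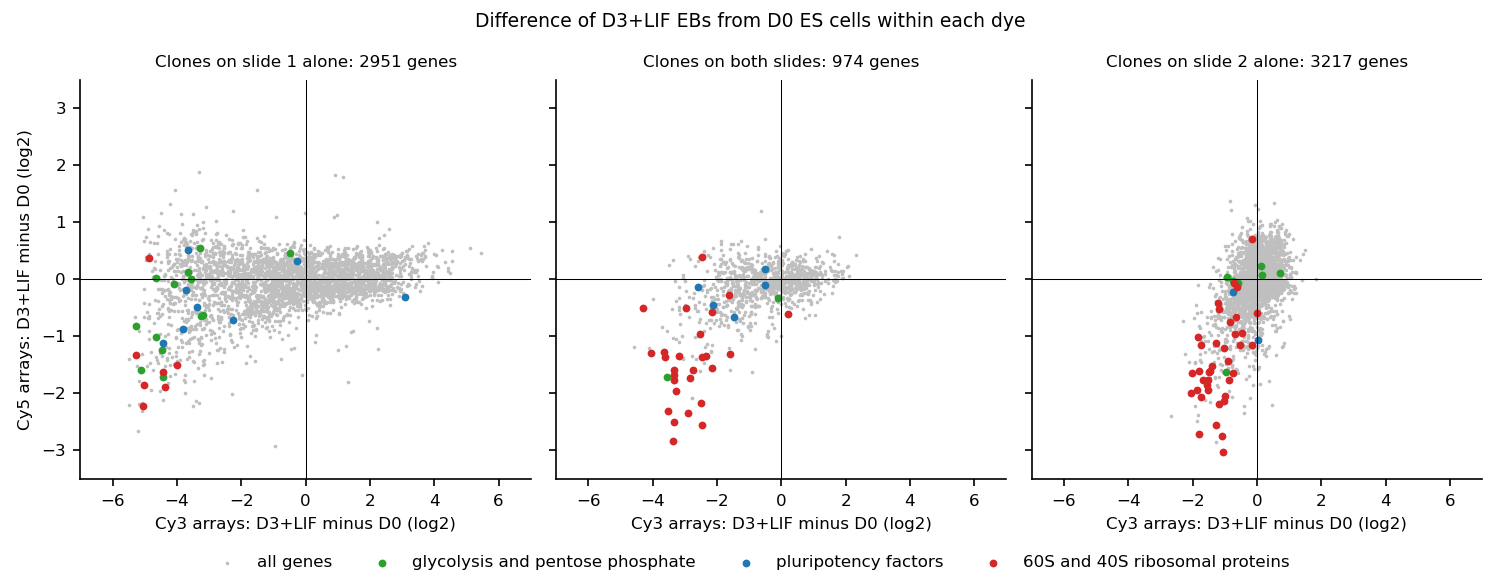
Difference of D3+LIF from D0 (log2) for each gene, on the Cy3 arrays (horizontal axis) and on the Cy5 arrays (vertical axis), for 2951 genes with clones on slide 1 alone, 974 on both slides and 3217 on slide 2 alone. Each point is a gene, and the colours mark 3 gene lists. Ribosomal proteins lie low on both axes in every panel, and the Cy3 difference is spread far wider where slide 1 takes part (SD 2.10 on slide 1 alone, 0.50 on slide 2 alone).

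Rpl37 had log2 ratios of −1.01 (Cy3) and −2.88 (Cy5) in D3+LIF, against 2.52 and −0.58 in D0. Both D3+LIF values lay below both D0 values. The difference was −2.92 ± 0.30 (SE, n = 2 arrays each; limma, adjusted p = 0.0283), which is 7.55-fold lower in D3+LIF. Its 2 clones gave −4.06 on slide 1 and −1.77 on slide 2. On slide 2 alone the gene's adjusted p by limma was 0.0539. The difference was −1.70 with arrays brought to equal spread and 0.62 with the Cy3 sign turned, and it was not called in either.

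A730082K24Rik had −0.28 (Cy3) and −4.11 (Cy5) in D3+LIF, against 2.39 and −1.72 in D0. Within each dye D3+LIF was lower, though the D0 value in Cy5 lay below the D3+LIF value in Cy3, so the groups overlapped. The difference was −2.53 ± 0.31 (SE, n = 2 arrays each; limma, adjusted p = 0.0283). Its only clone lies on slide 2, where the D0 array in Cy3 was less wide than on slide 1 but still gave the highest of the 4 values. On that slide alone the adjusted p by limma was 0.00867. Both of its spots carried the recurring ratio in D3+LIF in Cy3, so that value is 1 which many clones share. The difference was −1.08 at equal spread and 0.14 with the Cy3 sign turned, and neither passed.

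The 10 further genes of smallest p on the lower side did not pass the adjusted threshold. Rpsa, a protein of the small subunit that also acts as a laminin receptor, had −0.75 and −3.24 in D3+LIF, against 2.15 and −0.89 in D0 (Cy3, then Cy5, as in every pair below). All of its 7 clones were lower in D3+LIF, by −1.52 to −3.94, and the difference over them was −2.63 ± 0.36 (SE; limma, adjusted p = 0.0710). Eef1a1, which brings aminoacyl-tRNA to the ribosome, had −0.04 and −3.21 in D3+LIF and 2.72 and −1.14 in D0. All of its 17 clones had a difference below 0, the weakest of them −0.01. The recurring ratio of D3+LIF in Cy3 stood on at least 1 spot of 1 of the 7 Rpsa clones and of 5 of the 17 Eef1a1 clones.

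Tpt1, the translationally controlled tumour protein, had −0.50 and −3.22 in D3+LIF and 0.97 and −1.08 in D0, both clones being on slide 2. Sod1, the cytosolic superoxide dismutase, had −0.44 and −2.13 in D3+LIF and 1.49 and −0.69 in D0. Pdia3, a disulphide isomerase of the endoplasmic reticulum, had −0.25 and −4.07 in D3+LIF and 1.58 and −1.69 in D0. These 3 genes lay on slide 2 alone, and their differences were −1.81, −1.69 and −2.11. Cct8, a subunit of the chaperonin that folds actin and tubulin, lay on slide 1 alone and had the widest gap, with −0.48 and −2.49 in D3+LIF and 4.73 and 0.17 in D0. The remaining 4 were the ribosomal proteins Rps15a, Rpl26, Rps15 and Rpl7, with differences of −2.62, −2.46, −1.86 and −2.51. On slide 2 alone Rps15a had −1.07, Rpl26 −0.25, Rps15 −1.41 and Rpl7 −2.07.

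**Figure D2:**
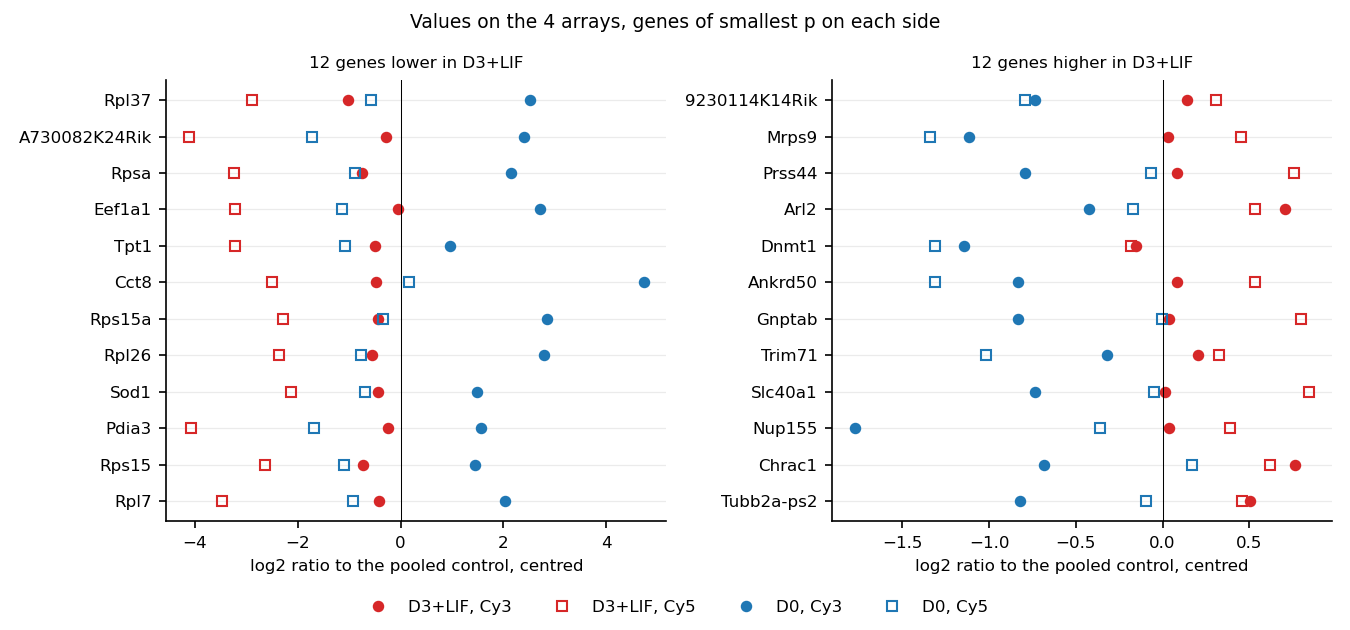
Log2 ratio to the pooled control (horizontal axis) on the 4 arrays for the 12 genes of smallest p lower in D3+LIF (left) and the 12 higher (right), among genes on the same side in both dyes. Red marks D3+LIF and blue D0, with filled circles for Cy3 and open squares for Cy5. On the left D3+LIF lies below D0 within each dye, and the D0 circle stands to the right of the other 3 marks. The panels differ in scale.

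Some of these genes share a motif before their start of transcription. The motif CCGGAAG (or CTTCCGG, its reverse complement), the core of the site of ETS factors such as GABP, was sought on both strands from 250 bases before to 50 after the start, in promoters from RefSeq (GRCm38.p6). It occurs in 9.12% of all 27025 promoters of the table, in 19.8% of the 5781 tested genes with an entry, and in 41.4% of the 58 ribosomal protein genes with an entry. It occurs in 20.9% of the 43 genes lower than the pooled control that have an entry, which is close to the share of all genes tested. Among the 12 higher genes of smallest p, 7 have an entry and 2 hold the motif (28.6%), so it is not a trait of the lower side alone. A match of letters describes the sequence and is not a shown site. Of the 12 lower genes 11 have an entry and 4 hold the motif, and the 3 that hold it before the start are printed here with 90 bases of promoter, the motif in capitals, to let a reader see its place in genes that carry the difference:
Rpl37 (chr15:5116523-5116612, + strand): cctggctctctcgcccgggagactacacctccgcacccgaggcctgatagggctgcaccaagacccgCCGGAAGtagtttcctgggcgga
Rpsa (chr9:120127533-120127622, + strand): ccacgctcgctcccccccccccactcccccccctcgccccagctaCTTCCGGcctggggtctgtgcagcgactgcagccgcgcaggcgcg
Cct8 (chr16:87495870-87495959, − strand): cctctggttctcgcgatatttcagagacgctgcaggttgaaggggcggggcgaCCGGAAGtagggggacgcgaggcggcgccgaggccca
The motif begins 23 bases before the start in Rpl37, 37 bases before it in Cct8 and 188 bases before it in Rpsa, where it reads as the reverse complement.

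The 72 measured cytosolic ribosomal proteins, of 83 listed, lay lower in D3+LIF as a group. In D3+LIF their median was −0.45 in Cy3 and −2.34 in Cy5, against 1.33 and −0.89 in D0. Within both dyes 68 of the 72 were lower in D3+LIF and 0 were higher, whereas 33.2% of all genes were lower and 25.6% higher within both dyes. Rpl37 alone passed the adjusted test, and 59 had an unadjusted p under 0.05, all of them lower (14.6% of all genes were). The medians were −1.83 for the 45 proteins of the large subunit and −1.70 for the 27 of the small one.

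The difference over the ribosomal proteins was alike in both dyes, with a median of −1.80 in Cy3 and −1.56 in Cy5. It was −1.41 on slide 2 alone (65 genes) and −1.72 without the D0 array in Cy3, so it did not hang on the array that stood apart. It was −0.73 with arrays at equal spread, −1.15 after quantile normalization and 0.25 with the Cy3 sign turned. Single members ran from −3.64 for Rps18 to 0.27 for Rpl11, the only one above 0, while 54.6% of all genes lay below 0. These 2 extremes were chosen after their values were seen. Ribosomal proteins have many processed pseudogenes, and a cDNA spot can bind the RNA of near copies, so a value is that of the gene with its copies.

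By the 2-fold criterion that the methods describe, applied to every duplicate spot in both dyes with no test, 569 of 15359 clones were lower in D3+LIF (3.70%) and 0 were higher. With the Cy3 sign turned it gave 4 lower and 32 higher. Of the 180 clones of ribosomal proteins, 103 met it (57.2%, against 4.11% of all clones with 1 symbol), among them all 7 of Rpsa and all 8 of Rpl7. Of the clones of translation factors 26.9% met it, and of those of chaperones 26.1%. The share was 4.48% on slide 1 and 2.93% on slide 2.

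Clones of slide 2 were also tested alone, which leaves out the slide on which the D0 array in Cy3 stood furthest apart. That array was still the widest in Cy3 on slide 2 (SD 0.49, against 0.17 to 0.30 on the EB arrays), and its values enter these calls. There limma called 36 clones lower in D3+LIF and 3 higher, of 7680. With clones averaged per gene the same slide gave 1 gene lower, A730082K24Rik, and 0 higher, of 4191, so Rpl37 and Arl2 passed there as clones and not as genes. The lower clones held Rps10, Rpsa, Rpl7, Rpl37, Rpl4, Rps3a1, Rps15, Rps2, Fau and Rps6 among the ribosomal proteins, and Tpt1, Eef1a1, Eef1b2 and Eef2 among the factors of translation. They also held Npm1, a nucleolar chaperone of ribosome assembly, with −2.01 ± 0.31 (SE; limma, adjusted p = 0.0305), and Nemf, which acts in the rescue of stalled ribosomes, with −1.64 ± 0.30 (SE; limma, adjusted p = 0.0410). The higher clones were those of Arl2, Prss44 and 1 clone without a symbol. Arl2, a small GTPase that assists in the folding of tubulin, was 0.92 ± 0.17 higher in D3+LIF there (SE; limma, adjusted p = 0.0410). Rps10, Rpl4, Rps3a1, Fau, Rps6, Eef1b2, Eef2, Npm1 and Nemf lie outside the naming rule and were taken after their values were seen.

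On the higher side 0 genes passed, and the 12 of smallest p had small differences. Arl2 had 0.71 and 0.54 in D3+LIF and −0.42 and −0.17 in D0. Its groups did not overlap, and the difference was 0.92 ± 0.18 (SE; limma, adjusted p = 0.130). Dnmt1, the maintenance DNA methyltransferase, had −0.15 and −0.18 in D3+LIF and −1.15 and −1.31 in D0. Its groups did not overlap either, and its clone lies on slide 1. Trim71, an RNA-binding protein of early embryos, had 0.20 and 0.32 in D3+LIF and −0.32 and −1.02 in D0. Slc40a1, the iron exporter, had 0.01 and 0.85 in D3+LIF and −0.74 and −0.05 in D0. The others were 9230114K14Rik, Mrps9, Prss44, Ankrd50, Gnptab, Nup155, Chrac1 and Tubb2a-ps2, with differences of 0.83 to 1.47. Of these, Ankrd50 was called with arrays centred over both slides together (2.43; limma, adjusted p = 0.0444). Its only clone lies on slide 1, and that centring leaves the gap between the slides in place. The D0 array in Cy3 had median log2 ratios of −2.73 on slide 1 and −0.31 on slide 2.

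Pluripotency genes lay lower in D3+LIF in Cy3 and little lower in Cy5. Of 15 measured, 0 passed, 6 had an unadjusted p under 0.05 on the lower side, and 10 were lower within both dyes. The list's median was −2.11 in Cy3 and −0.31 in Cy5. On slide 2 alone, with 7 genes, it was −0.29. Nanog, Pou5f1, Zfp42 and Klf4 have clones on slide 1 only. The LIF and STAT3 targets had a median of −0.08 over 14 genes, near that of all genes, with 0 called.

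Nanog had −0.63 and −1.82 in D3+LIF, against 3.80 and −0.71 in D0. D3+LIF was lower within each dye, though its Cy3 value lay just above that of D0 in Cy5, and the difference was −2.77 ± 0.74 (SE; limma, adjusted p = 0.186). Pou5f1 (Oct4) had 0.13 and −0.11 in D3+LIF, against 3.85 and 0.08 in D0. All but the D0 value in Cy3 lay close to the pool. Zfp42 (Rex1) had 0.23 and −0.71 in D3+LIF, against 3.89 and −1.23 in D0, lower in Cy3 and higher in Cy5, and its difference of −1.57 became 0.76 with arrays at equal spread. Klf4, which STAT3 sustains, had −0.03 and −0.69 in D3+LIF, against 3.36 and −0.20 in D0. Socs3, the feedback inhibitor that STAT3 induces, had −0.43 and −1.55 in D3+LIF, against 2.57 and −0.27 in D0. For Nanog, Pou5f1, Klf4 and Socs3 the sign was the same in both dyes, and for none of them did the test pass. Jarid2, a partner of the PRC2 complex, had −0.12 and −0.71 in D3+LIF against 1.99 and −0.27 in D0, and its clone on slide 2 differed by 0.01.

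Among the germline-linked genes of ES cells, 0 of 17 passed, 5 were lower and 2 higher at an unadjusted p under 0.05, and the median was −0.04. Mkrn1, a ubiquitin ligase, had −0.32 and −2.05 in D3+LIF and 0.58 and −0.43 in D0. Dppa5a, which the study followed by RT-PCR, had −0.65 and −1.26 in D3+LIF and 0.50 and −1.34 in D0. Dppa5a, a marker of undifferentiated cells whose clone is on slide 2, thus had nearly equal values in Cy5 and a lower D3+LIF value in Cy3.

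In the lists of germ layer and extraembryonic markers 0 genes passed the adjusted test. The trophoblast list lay lowest, with a median of −0.83 over 12 genes, 7 of them lower within both dyes and 6 at an unadjusted p under 0.05. Its median was −0.06 in Cy5 and −0.22 without the D0 array in Cy3. With arrays centred over both slides it was 0.22, and with no centring 0.70, so the side of this list depends on the centring. The 8 primitive ectoderm genes all lay below 0, with a median of −0.41 and 4 lower within both dyes. Of the extraembryonic endoderm genes 17 were measured and 0 passed, with 4 higher and 2 lower at an unadjusted p under 0.05 and a median of −0.19. The median was 0.01 on slide 2 alone and 0.18 with arrays centred over both slides, so its side depends on the centring. Gata4 had −0.14 and 0.35 in D3+LIF, against −0.44 and 0.09 in D0. It was higher in D3+LIF in both dyes, with a difference of 0.28 ± 0.17 (SE; limma, adjusted p = 0.323). Cited1 had 0.49 and 0.40 in D3+LIF, against −1.56 and 0.02 in D0. Krt8, a keratin of simple epithelia, had −0.03 and −0.39 in D3+LIF, against 2.28 and −0.30 in D0.

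The basement membrane genes had a median of −0.06 over 16 genes, with 0 called. Nid1, a linker of laminin and collagen IV, had −0.13 and −1.18 in D3+LIF, against 2.55 and −0.17 in D0. Nestin (Nes), a marker of neural precursors, had −0.10 and 0.16 in D3+LIF, against 1.42 and −0.02 in D0. In the mesoderm list 0 of 6 measured genes passed, with 2 lower and 3 higher within both dyes. Its median was 0.21, and −0.03 with arrays at equal spread. Mesp2 was among the lower genes, with −0.48 and −1.26 in D3+LIF against −0.06 and −0.25 in D0. Its 3 clones disagreed, from −2.28 on slide 2 to 0.60 on slide 1. Of the 3 defining mesoderm markers T, Mixl1 and Kdr, 0 were measured. The erythroid and fibroblast lists, set as checks for other cells, had medians of 0.23 over 6 genes and 0.13 over 11, with 0 called in either. Col1a1 was the member of smallest p, with −0.17 and 0.69 in D3+LIF and −0.82 and 0.20 in D0.

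**Figure D3:**
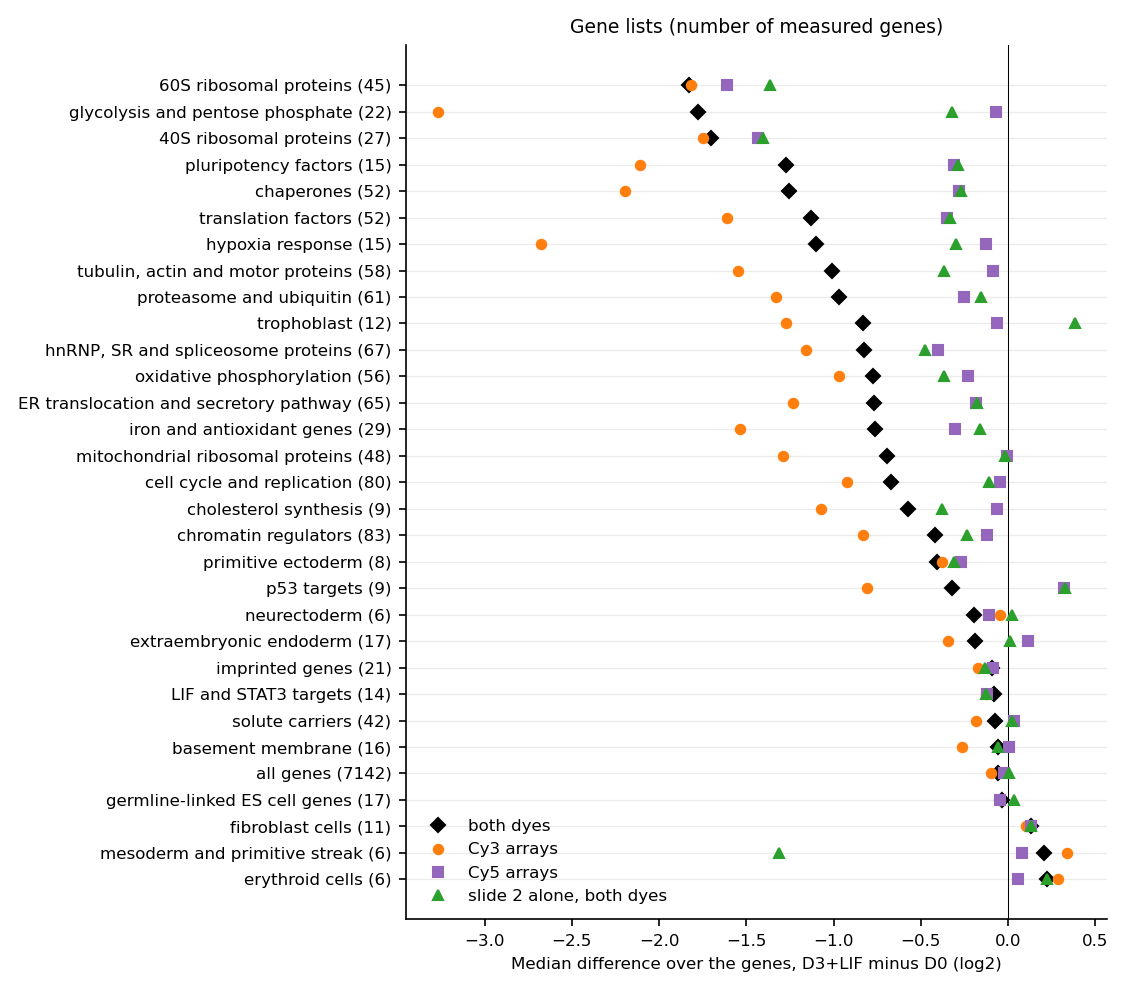
Median difference of D3+LIF from D0 (log2, horizontal axis) over the measured genes of each list, with their number in brackets. Diamonds show both dyes together, circles the Cy3 arrays, squares the Cy5 arrays and triangles slide 2 alone. The lists of the 60S and 40S ribosomal proteins hold all 4 marks at −1.36 or lower, while for glycolysis the circle lies at −3.27 and the square at −0.07.

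Metabolic and housekeeping lists showed a gap between the dyes. Over 22 genes of glycolysis and the pentose phosphate pathway the median was −3.27 in Cy3 and −0.07 in Cy5, and −0.32 on slide 2 alone (9 genes). Pkm, the last enzyme of glycolysis, had −0.62 and −2.49 in D3+LIF and 2.91 and −0.77 in D0. Aldoa had −0.79 and −1.50 in D3+LIF and 4.49 and −0.69 in D0. Both were lower in D3+LIF in both dyes, with adjusted p of 0.156 and 0.186 by limma. Pkm differed by −2.63, and by −0.53 on slide 2 alone. The chaperones (52 genes, median −1.26) and translation factors (52 genes, −1.13) had medians of −0.28 and −0.35 in Cy5 and of −0.27 and −0.34 on slide 2 alone. The proteasome list had −0.97 over 61 genes and −0.16 on slide 2 alone. In oxidative phosphorylation Atp5b and Atp5j, parts of the ATP synthase, had differences of −1.94 (−1.04 on slide 2 alone) and −1.59, with 0 of 56 genes called.

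Over all 34 lists the median lay below 0 in 31 and above it in 3. Rpl37 was the only gene of the lists that passed the adjusted test. With the Cy3 sign turned all 34 medians changed side, with no centring 18, on slide 2 alone 8, with arrays at equal spread 4 and after quantile normalization 2. The turned medians were 0.25 for the ribosomal proteins, 0.78 for pluripotency, 1.29 for glycolysis, 0.88 for the chaperones and 0.61 for the translation factors. These 5 lists stayed below 0 on slide 2, at equal spread and after quantile normalization.

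Of the 3 genes used as housekeeping controls 0 passed the test. Their median difference was −2.11, but −0.14 with arrays at equal spread and −0.97 without the D0 array in Cy3. Gapdh had −0.54 and −2.34 in D3+LIF, against 3.91 and −0.63 in D0, and its 3 clones all lay lower, by −2.35 to −3.52. Actb had −0.02 and −1.38 in D3+LIF, against 3.66 and −0.84 in D0, and 9 of its 10 clones lay lower. Hprt had −0.12 and −1.74 in D3+LIF, against 2.89 and −1.28 in D0. All 3 were lower within both dyes, stayed below 0 under every centring and scaling tried, and lay above 0 with the Cy3 sign turned. Limma gave adjusted p of 0.186 to 0.199. Gapdh and Actb have no clone on slide 2, and Hprt differed by −1.15 there.

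The genes that the study followed by RT-PCR and called changed were taken from these samples, so their direction is not independent evidence. The study reported most of its changed genes for EBs without LIF and fewer for EBs with LIF, and the list used here joins both. Of 16 measured, 0 passed, 13 were lower in D3+LIF within both dyes and 1 was higher, with a median of −1.98. Other genes were picked from the same arrays but showed no consistent change by RT-PCR, so their direction is not independent evidence either. Their median was −2.25 over 39 genes, 34 of them lower within both dyes and 1 of them, Rpl37, called. Rpl8 had −0.78 and −2.70 in D3+LIF and 2.83 and −1.35 in D0. Hspa8, the constitutive Hsp70, had 0.03 and −2.73 in D3+LIF and 3.09 and −1.35 in D0. Ftl1, the ferritin light chain, had −1.05 and −2.03 in D3+LIF and 3.54 and −0.84 in D0. All 3 were lower in both dyes, with differences of −2.49, −2.22 and −2.89, and of −1.63, −1.17 and −1.42 on slide 2 alone. Aurkb, a mitotic kinase, was the higher one, with 1.58 and 0.69 in D3+LIF and 1.46 and 0.08 in D0 and a difference of 0.37 ± 0.52 (SE; limma, adjusted p = 0.677). With arrays at equal spread Eif4a1 and Hsp90aa1 turned to the higher side in D3+LIF.

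The pooled control gives a comparison in which D0 enters only through the dye term and the spread of the fit. Against it 53 genes were lower in D3+LIF (0.742% of 7142; limma, adjusted p under 0.05) and 0 were higher (0%), with 547 lower (7.66%) and 171 higher (2.39%) at an unadjusted p under 0.05. Of the 53, 15 were cytosolic ribosomal proteins (28.3%, against 1.01% of all genes tested). The lowest were Rpl10a with −0.52 in Cy3 and −4.04 in Cy5, Pcbp2 with −0.63 and −3.91, and Pdia3 with −0.25 and −4.07. In all 3 the Cy5 value lay far below the pool and the Cy3 value close to it.

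The list against the pool also held the heat shock protein Hspb1, with −1.28 and −2.48, and the nucleolar Npm1, with 0.66 and −3.52. Txn1, the cytosolic thioredoxin, had −0.40 and −2.35, and Stmn1, which depolymerises microtubules, had −0.64 and −1.81. Of the 53 genes 51 were below the pool in both dyes and 45 had clones on slide 2 alone. In 34 of the 53 the mean lay below the pool in every condition that had both arrays. In the rest only the D0 mean lay above it. All 53 were thus below the pool in every EB condition with both arrays, and this place is not particular to D3+LIF. The series description gives the pool as EBs of days 1 to 4, and the methods add the cells of day 0, so whether D0 RNA is part of the pool is not settled. Ribosomal proteins lay below the pool in Cy5 throughout, with medians of −0.89 in D0 and −1.57 to −3.48 in the EB conditions. The Cy3 medians ran from −0.67 to 0.63 in the EBs and stood at 1.33 in D0. The part of the dye in these values was not tested. The count became 270 lower and 11 higher on slide 2 alone, 0 at equal spread and 0 when the D3+LIF array of either dye was left out, but 131 when either D0 array was.

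Between D3+LIF and D3-LIF EBs 0 of 7142 genes passed the adjusted threshold by limma, with 39 higher (0.546%) and 12 lower (0.168%) at an unadjusted p under 0.05. The ribosomal proteins had a median difference of 0.09 between D3+LIF and D3-LIF. For Rpl37 it was −0.47 (95% interval −1.14 to 0.21) and for Rpsa 0.16 (−0.64 to 0.97), so changes of about 2-fold remain possible. A730082K24Rik was −0.94 (−1.62 to −0.26) and Arl2 0.84 (0.44 to 1.24) in D3+LIF relative to D3-LIF, both with an adjusted p of 1.00 by limma. These genes were named for their difference of D3+LIF from D0, and the same D3+LIF arrays enter here, so their differences can lean away from 0. Arl2 had −0.22 in both dyes in D3-LIF, below both D3+LIF values.

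Against D4+LIF, 0 genes passed in the same fit, with 171 higher (2.39%) and 90 lower (1.26%) in D3+LIF at an unadjusted p under 0.05. Without the D4+LIF array in Cy3 the count was 202 higher and 257 lower, so it rests on that array. Ribosomal proteins were 0.41 higher in D3+LIF than in D4+LIF in the median, and Rpsa differed by −0.02 (95% interval −0.82 to 0.79). Arl2 was 0.73 higher in D3+LIF (0.33 to 1.14; limma, adjusted p = 0.919), again on the D3+LIF arrays for which it was named.

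The comparisons of each day with D0 share the D0 arrays, so their values are only set side by side. The ribosomal proteins had median differences from D0 of −1.34 on day 1, −1.64 on day 2, −1.74 on day 3 and −2.19 on day 4 with LIF, and −1.64 on day 3 without it. Rpl37 had −2.10, −2.22, −2.92 and −2.39 on days 1 to 4 with LIF. Dnmt1 had 1.51, 1.24, 1.06 and 1.29 on the same days. Arl2, which was named for its day 3 value, had 0.12 and 0.01 on days 1 and 2, 0.92 on day 3 and 0.18 on day 4.

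**Figure D4:**
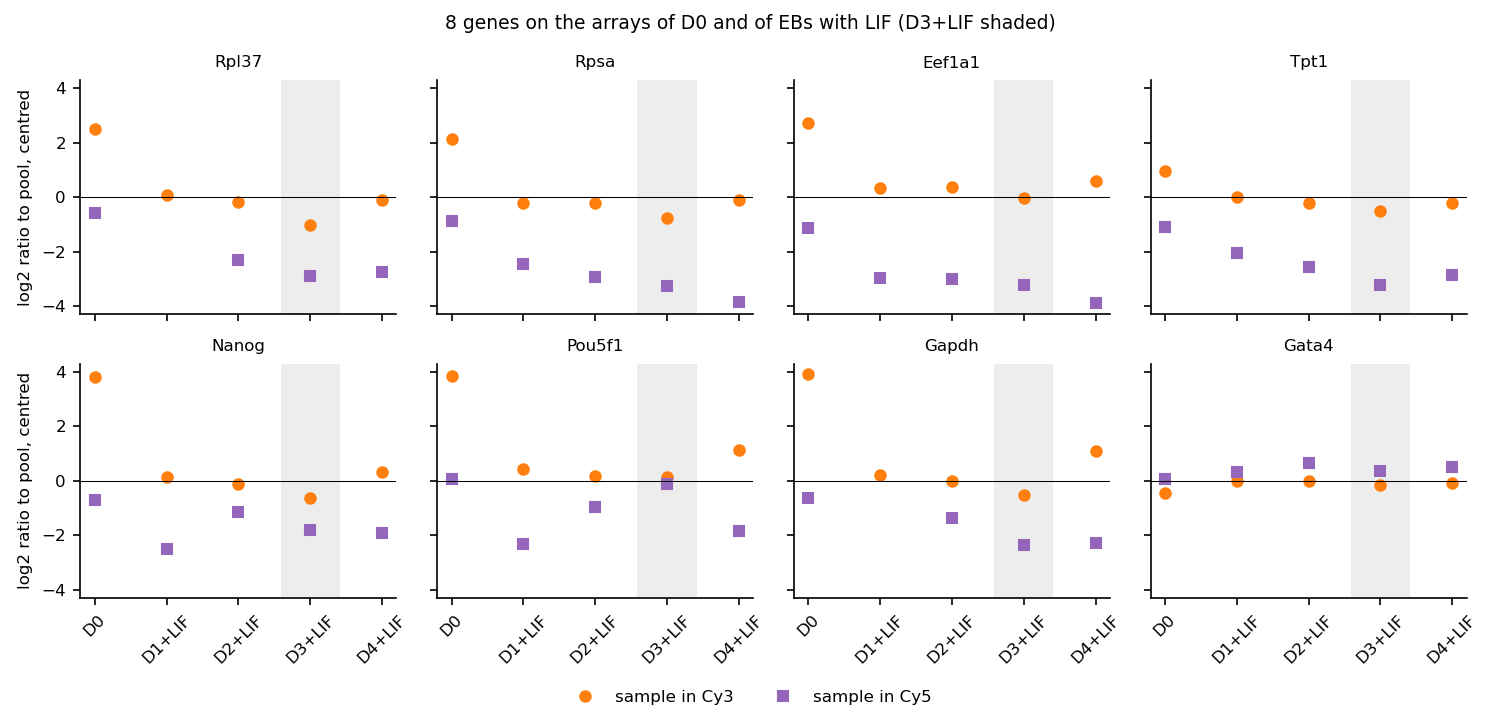
Log2 ratio to the pooled control (vertical axis) of 8 genes on the arrays of D0 and of EBs with LIF on days 1 to 4, with the sample in Cy3 (circles) or in Cy5 (squares) and D3+LIF shaded. Rpl37 and Gapdh have no Cy5 value on day 1. The D0 circle stands highest in all panels but that of Gata4, and the squares lie below the circles in those 7 panels on every day with both.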

How the data were processed

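The authors quantified the spots and scaled each channel to its own mean, and what they deposited is 1 linear ratio for every spot of every array. Channel intensities were not used here, so no filter on dim spots was applied. Each slide holds 17280 spots in grids of 360, and the copy of a clone lies 160 spots on. The 40 control positions of each grid were left out. Log2 ratios of the copies were averaged, and the median of each slide was subtracted per array. The median ratio per array ran from 0.655 to 1.85. Scale is thus known, centring differs between arrays and direction is likely but not settled. Of the clones, 9866 have 1 symbol, 274 several and 5220 none in the platform annotation, and 9760 symbols matched current names.

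Limma (version 3.58.1, R 4.3.3) was fitted to all 18 arrays with 9 condition means and the sample's dye as a block, since the dye pairs the arrays of a comparison, with clones of a gene averaged. P-values were adjusted by Benjamini-Hochberg over all features, at 0.05. The code was tested on simulated data. Named genes were the 12 on each side (past the threshold by size, then by smallest p, on the same side in both dyes), up to 4 called or the 2 of smallest p from each list, and the study's markers, controls and genes changed by RT-PCR. Members and lists were chosen with earlier results of these data known. Precision is limited by having 2 arrays per condition. Alternatives changed the centring, scaling, dye term, arrays, weights, filters, sign and slide.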

Additional observations from a re-analysis of the deposited data

How the results depend on the processing

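Counts of genes called in D3+LIF against D0 (2), then of genes against the pooled control (53), of lists with a called gene (2) and of named genes called (2), changed as follows. Centring over both slides gave 11, 127, 7 and 9. Array weights gave 4, 197, 4 and 4, and a value on all 18 arrays 4, 192, 4 and 3. Slide 2 alone gave 1, 281, 0 and 1, and centring within each print grid, added after the data were seen, 1, 48, 0 and 1. Equal spread, no dye term (no replicate block), only the 4 arrays, the Cy3 sign turned and slide 1 alone each gave 0 in all 4 counts, and quantile normalization 0, 1, 0 and 0. Leaving out 1 array gave 0 to 2819, 0 to 131, 0 to 33 and 0 to 72. The array left alone in its group was then assumed to vary like the others.

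No clone was called against D0, but 117 were with centring over both slides, 1 after quantile normalization, 17 with a value on all 18 arrays and 39 on slide 2 alone. The 2-fold criterion gave 569, and 36 with the Cy3 sign turned, which was added after the data were seen. Leaving out 1 array gave 0 to 5933 clones, the highest without the D0 array in Cy5. Against D4+LIF it gave 0 to 459 genes, the highest without the D4+LIF array in Cy3, and against D3-LIF 0 in all. With the Cy3 sign turned Rpl37 (0.62) and A730082K24Rik (0.14) reversed. The median of all genes was −0.06, against 0.07 with centring over both slides and 0.55 with none. The cause of these changes was not tested.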
